A study of Mus musculus with 9 samples.

Results

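Levels of 10 genes of the BCL2 family were followed across room air, hyperoxia and hyperoxia with WNT5A in cultured mouse lung cells. The genes were taken by name as the family members that are not classic targets of p53, namely the anti-death genes Bcl2, Bcl2l1, Bcl2l2 and Mcl1, the pore-forming genes Bak1 and Bok, and the BH3-only genes Bcl2l11, Bid, Bad and Bmf. No threshold on a measured value was used. They are 10 of the 56620 genes and loci in the table, and all 10 passed the filter of a mean of at least 1 FPKM (fragment counts corrected for transcript length and for library size) that left 13831 for testing.

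The cells were bought from a supplier and are labelled primary lung microvascular endothelial cells of the mouse, and the labels used here give no strain, age or genotype. All groups were cultured for 48 h. Group RA was kept in room air at 21% O2, group HO in hyperoxia at 85% O2, and group HO-rWNT5A in 85% O2 with 100 ng/ml recombinant WNT5A, a secreted WNT ligand. Each group had 3 libraries, and room air with WNT5A was not analysed here. Whether the 3 libraries of a group were separate cultures is not stated, so the spread that the p-values rest on, that between libraries, may be technical.

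The labelled cell type was checked against its markers. Of 10 pan-endothelial genes, 7 had means under 0.1 FPKM, among them Pecam1, Cdh5 and Tie1, while Flt1 averaged 37.9 FPKM and Emcn 10.1 FPKM. Of 8 pericyte and smooth muscle genes, 6 averaged at least 5 FPKM, with Acta2 at 1570 and Tagln at 886, while Rgs5 averaged 0.757 and Myh11 0.236. Most of the defining endothelial markers were thus at or near 0, and the cells are called the cultured cells here. In these bulk libraries fewer cells of a type and less RNA per cell cannot be told apart. HO replicate 3 had the lowest share of FPKM in small structural RNA, 20.61% against 21.86% to 28.51% in the other libraries, and the highest share in retained introns, 7.09% against 5.26% to 6.58%. Within groups the median log2 SD over genes was 0.0738 in room air, 0.123 in hyperoxia alone and 0.083 in HO-rWNT5A.

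BCL2 family proteins decide whether the outer membrane of the mitochondrion is opened during apoptosis. Pore-forming members permeabilise the membrane and release cytochrome c, which assembles the apoptosome with APAF1 and activates caspases. Anti-death members hold pore-forming members in check by binding the BH3 helix of pro-death proteins in a surface groove, and BH3-only proteins, which sense different kinds of stress, compete for that groove. Much of the control of this family acts on the proteins, which these data do not measure.

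The BH3 core is the feature that the family shares and through which its members bind each other, so the coding DNA of that core is shown for each gene. The stretches are 30 bases, 10 codons, in the sense direction, from the protein-coding transcript with the highest mean FPKM in GENCODE M21. Capitals mark the codon of the core's first hydrophobic residue and the codons of its small residue and aspartate. The core pattern used was leucine or methionine, any 3 residues, then glycine, alanine or serine, then aspartate. It was made wide enough for the members that vary at these residues, so its match in each of the 10 proteins follows from that choice. It matched once in each.
Bcl2l1: caagcgCTGagagaggcaGGCGATgagttt
Mcl1: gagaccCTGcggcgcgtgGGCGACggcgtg
Bcl2l2: caagccATGcgggctgctGGAGACgagttt
Bcl2: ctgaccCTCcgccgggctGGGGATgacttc
Bok: acagtgCTGctgcgcttgGGAGATgagctg
Bak1: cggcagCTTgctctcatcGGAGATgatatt
Bcl2l11: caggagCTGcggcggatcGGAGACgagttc
Bid: agacatCTCgcccaaataGGCGATgagatg
Bad: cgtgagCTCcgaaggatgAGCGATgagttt
Bmf: agaaagCTTcagtgtattGCAGACcagttc
The first capital codon encodes leucine in 9 genes and methionine in Bcl2l2. The small residue is glycine in 8 genes, serine in Bad and alanine in Bmf. On GRCm38 the stretch lay within a coding exon at chr2:152829700-152829729 on the minus strand for Bcl2l1, chr3:95659430-95659459 on the plus strand for Mcl1, and chr14:54884511-54884540 on the plus strand for Bcl2l2. It lay at chr1:106712578-106712607 on the minus strand for Bcl2. The Bok stretch is split by an intron between exons 2 and 3, from chr1:93686651-93689167 on the plus strand. The Bak1 stretch is at chr17:27022534-27022563 on the minus strand, that of Bcl2l11 at chr2:128147144-128147173 on the plus strand, and that of Bid at chr6:120897292-120897321 on the minus strand. Those of Bad and Bmf are at chr19:6950786-6950815 on the plus strand and chr2:118545103-118545132 on the minus strand.

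Gene levels, as FPKM summed over transcripts and scaled between libraries, ranked in the order Bcl2l1, Mcl1, Bok, Bcl2l11, Bcl2l2, Bak1, Bid, Bad, Bcl2 and Bmf. FPKM is per length, so levels of different genes can be set side by side. Over the 9 libraries Bcl2l1 averaged 97.4 FPKM with a range of 91.0 to 105, and Mcl1 66.5 with a range of 61.5 to 71.8. These ranges did not overlap each other, nor that of Bok, 23.5 to 36.2. The ranges of the neighbours Bcl2l11 and Bcl2l2, Bcl2l2 and Bak1, and Bid and Bad did overlap. Bcl2 itself, the founding member, was next to last at 4.29 FPKM, and Bmf was last at 1.78.

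**Figure D1:**
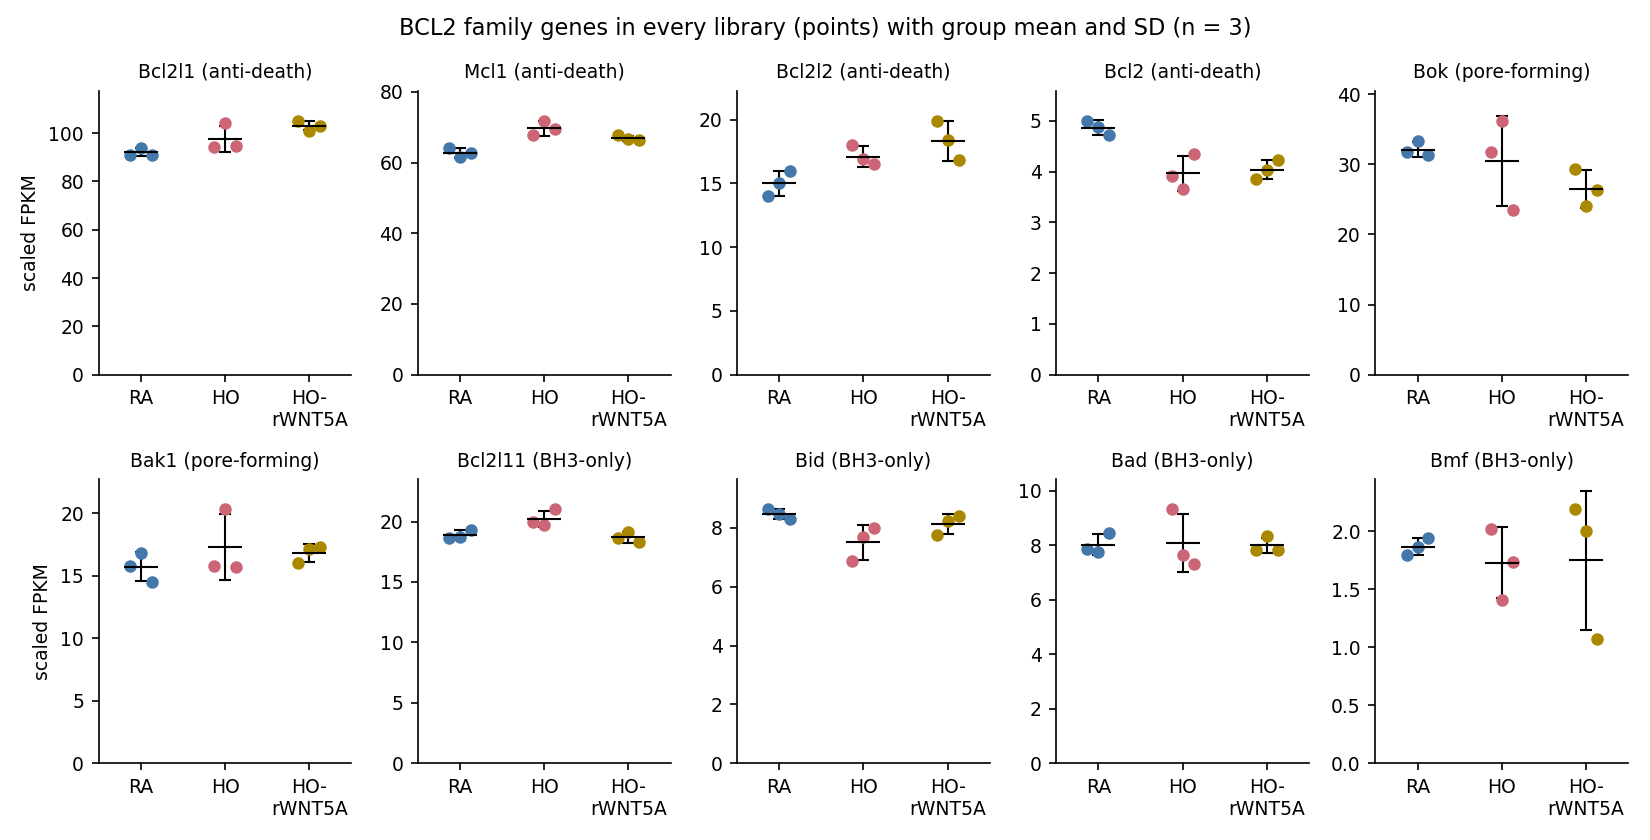
Scaled FPKM of each of the 10 genes (linear axes from 0) in the 9 libraries, points ordered by replicate number, with group mean and SD (n = 3). RA lies apart from HO for all 4 anti-death genes, below it for Bcl2l1, Mcl1 and Bcl2l2 and above it for Bcl2, while the pro-death genes mostly overlap.

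The HO vs RA comparison asks what hyperoxia did. None of the 10 genes passed in either direction by limma's test with Benjamini-Hochberg adjustment at 0.05, where 1.97% of all genes tested passed, 1.21% higher and 0.766% lower. At an unadjusted p under 0.05 the count was 4 of 10, against 18.1% of all genes. RA and HO did not overlap for 6 genes, 4 higher and 2 lower in HO, against 21.4% of all genes, 11.3% higher and 10.1% lower. Those 6 included all 4 anti-death genes, on values scaled between libraries. With FPKM as deposited, before scaling, RA and HO overlapped for Bcl2l1, Bcl2l2 and Bcl2l11. The log2 fold changes of the 10 genes ran from -0.24 to 0.18 with a median of 0.04, against a median of 0 over all genes. Their 95% intervals, which are not adjusted for the number of genes, reached at most -0.42 to 0.35. Adding 1 FPKM before taking log2 makes fold changes of low genes such as Bmf too small.

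The HO-rWNT5A vs HO comparison asks what WNT5A did in hyperoxia. None of the 10 genes passed limma's adjusted threshold, where 0.00723% of all genes did (1 gene), and none was at an unadjusted p under 0.05, against 9.2% of all genes. Only Bcl2l11 had groups that did not overlap, lower with WNT5A, against 13% of all genes in either direction and 6.7% in that one. In HO-rWNT5A vs RA, which shares the RA libraries with the first comparison and the treated libraries with the second, none of the 10 passed limma's test, against 4.26% of all genes (2.39% higher and 1.87% lower), and 3 were at an unadjusted p under 0.05, against 20.9%. Groups did not overlap for 5 of 10, against 32.8% of all genes, with 3 higher (16.3% of all genes) and 2 lower (16.5%) than in RA.

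**Figure D2:**
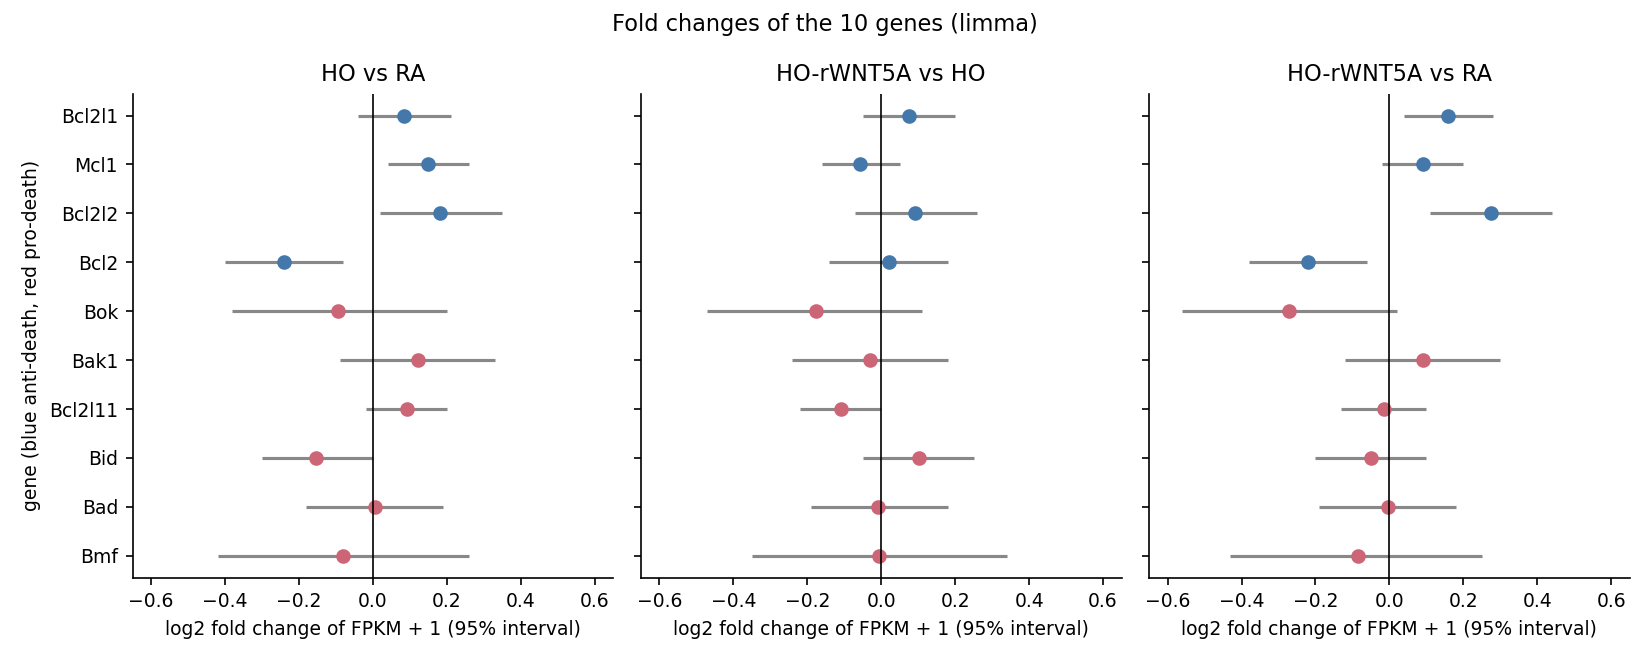
Log2 fold change of FPKM + 1 (limma, points) with unadjusted 95% intervals (lines) for the 10 genes in the 3 comparisons, anti-death genes in blue and pro-death genes in red. Against RA the points of Mcl1, Bcl2l2 and Bcl2l1 lie above 0 and that of Bcl2 below 0, and no gene passed the adjusted threshold.

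Among the anti-death genes, Bcl2l1 encodes BCL-XL and had the highest level. Scaled FPKM was 91.0, 93.9 and 91.0 in room air replicates 1 to 3, 94.1, 104 and 94.8 in hyperoxia alone, and 105, 101 and 103 in HO-rWNT5A. After scaling, every hyperoxic library was above every room air library, HO replicate 1 by the least. With FPKM as deposited, before scaling, RA and HO overlapped, and the log2 fold change in HO vs RA was 0.02. Means were 92.0 ± 1.65 in room air, 97.5 ± 5.35 in hyperoxia alone and 103 ± 1.86 in HO-rWNT5A (SD, n = 3). The log2 fold change was 0.08 ± 0.0551 (SE) in HO vs RA (limma adjusted p = 0.463) and 0.16 ± 0.0551 in HO-rWNT5A vs RA, with an interval of 0.04 to 0.28 and an adjusted p of 0.133. The gene spans chr2:152780668-152831728 on the minus strand.

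Mcl1 encodes a short-lived guardian that is constantly made and degraded. It stood at 64.2, 61.5 and 62.7 FPKM in room air, 67.7, 71.8 and 69.6 in hyperoxia alone, and 67.7, 66.6 and 66.5 in HO-rWNT5A. After scaling, all 6 hyperoxic libraries again lay above the room air libraries, while the hyperoxic groups touched at 67.7. With FPKM as deposited, HO-rWNT5A overlapped RA. The mean was 62.8 ± 1.35 in RA and 69.7 ± 2.08 in HO (SD, n = 3), 11% apart, a log2 fold change of 0.15 ± 0.0485 with an interval of 0.04 to 0.26 and a limma adjusted p of 0.149. With WNT5A the mean was 66.9 ± 0.694, a log2 difference of -0.06 from HO (adjusted p = 0.75) and 0.09 from RA (adjusted p = 0.32). Essentially the whole level, rounding to 100% in the mean, was assigned to Mcl1-201, the transcript of 331 codons. The transcript of 285 codons was at 0.00429 FPKM in RA replicate 1 and listed at 0 in the other 8 libraries. The gene spans chr3:95658788-95663176 on the plus strand.

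Bcl2l2 encodes BCL-W, a guardian best known from the testis and neurons. Its values were 14.0, 15.0 and 16 FPKM in room air, 18, 16.9 and 16.5 in hyperoxia alone, and 19.9, 18.4 and 16.8 in HO-rWNT5A. After scaling, RA lay below both hyperoxic groups, which overlapped. With FPKM as deposited, RA overlapped both. HO-rWNT5A exceeded RA by 22.4% in the mean, a log2 fold change of 0.27 ± 0.0741 with an interval of 0.11 to 0.44, the widest distance from RA on the high side among the 10 genes. The limma adjusted p was 0.0661, and it was 0.231 in HO vs RA at a log2 fold change of 0.18. That gene passed in HO-rWNT5A vs RA in 3 of 24 alternative analyses, with adjusted p from 0.0485 to 0.215. The annotated gene Gm20521 overlaps Bcl2l2 on the same strand (chr14:54883441-54898137 against chr14:54883377-54888234) and averaged 6.48 FPKM, so reads may be split between them. Gm20521 ranged from 3.85 to 9.04 FPKM with overlapping groups, and its part in the Bcl2l2 values was not tested.

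Bcl2, at chr1:106538178-106714274 on the minus strand, was the anti-death gene with lower values in hyperoxia. It was at 5.0, 4.89 and 4.72 FPKM in room air, 3.92, 3.65 and 4.34 in hyperoxia alone, and 3.86, 4.03 and 4.24 in HO-rWNT5A. Every hyperoxic library was below every room air library, and the hyperoxic groups overlapped. The mean went from 4.87 ± 0.143 in RA to 3.97 ± 0.349 in HO and 4.04 ± 0.192 in HO-rWNT5A (SD, n = 3). Against RA the log2 fold change of Bcl2 was -0.24 ± 0.0728 in HO, with an interval of -0.40 to -0.08 and a limma adjusted p of 0.121. It was -0.22 in HO-rWNT5A vs RA (adjusted p = 0.117) and 0.02 in HO-rWNT5A vs HO (adjusted p = 0.951). Without HO replicate 3 the adjusted p in HO vs RA was 0.0493 at a log2 fold change of -0.30, and over 23 alternative analyses it ran from 0.0493 to 0.355. By transcript, Bcl2-202, of 199 codons, was at 1.03, 1.04 and 1.07 FPKM in room air, 0.555, 0.500 and 0.811 in hyperoxia alone, and 0.504, 0.785 and 0.737 in HO-rWNT5A. It fell under the filter and was not tested. Bcl2-201, of 236 codons, held 82.1% of the gene's FPKM on average and had a log2 fold change of -0.15 in HO vs RA (adjusted p = 0.518).

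Of the pore-forming genes, Bok encodes a BAX-like and BAK-like protein whose level is controlled by degradation at the endoplasmic reticulum. It stood at 31.7, 33.3 and 31.4 FPKM in room air, 31.8, 36.2 and 23.5 in hyperoxia alone, and 29.4, 24 and 26.3 in HO-rWNT5A. The HO libraries spread over the whole range of the gene, with replicate 2 highest and replicate 3 lowest, and HO-rWNT5A lay below RA without overlap. Replicate 3 of HO is the library with the least structural RNA, and the part of that in its Bok value was not tested. For Bok the log2 fold change was -0.27 ± 0.131 in HO-rWNT5A vs RA, with an interval of -0.56 to 0.02 and a limma adjusted p of 0.272. It was -0.09 in HO vs RA (adjusted p = 0.745), and 0.08 without HO replicate 3. Bok spans chr1:93685660-93695764 on the plus strand.

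Bak1 encodes BAK, which sits in the mitochondrial membrane and is restrained by MCL1 and BCL-XL. Its FPKM was 15.8, 16.8 and 14.5 in room air, 15.8, 20.3 and 15.7 in hyperoxia alone, and 16, 17.1 and 17.3 in HO-rWNT5A. HO replicate 2 was the highest library and the groups overlapped in all 3 comparisons. The log2 fold change in HO vs RA was 0.12 with an interval of -0.09 to 0.33 (limma adjusted p = 0.54). With WNT5A it was 0.09 against RA, with an interval of -0.12 to 0.30 (adjusted p = 0.637). These sums include Bak1-204, annotated for nonsense-mediated decay. It was at 2.34 FPKM in HO replicate 1, 3.27 and 1.92 in HO-rWNT5A replicates 1 and 3, and 0 in the other libraries. The protein-coding Bak1-202 had log2 fold changes of 0.05 in HO vs RA and -0.06 in HO-rWNT5A vs RA.

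Among the BH3-only genes, Bcl2l11 encodes BIM, which can bind every anti-death member and can activate BAX and BAK directly. Its FPKM was 18.6, 18.7 and 19.3 in room air, 20.0, 19.7 and 21.0 in hyperoxia alone, and 18.6, 19.1 and 18.3 in HO-rWNT5A. After scaling, all HO libraries lay above all libraries of both other groups, which overlapped. Both differences rest on the same HO libraries. With FPKM as deposited, HO overlapped both other groups, and the log2 fold change in HO vs RA was 0.03. The means were 18.9 ± 0.401, 20.2 ± 0.671 and 18.7 ± 0.443 (SD, n = 3) in that order. This gave log2 fold changes of 0.09 ± 0.0505 in HO vs RA (limma adjusted p = 0.367) and -0.11 ± 0.0505 in HO-rWNT5A vs HO, with an interval of -0.22 to 0.00 and an adjusted p of 0.551. Bcl2l11-205, whose 196 codons encode the long form known as BIM-EL, held 61.5% of the gene's FPKM on average. It was at 11.4, 9.89 and 11.4 FPKM in room air, 13.2, 12.1 and 14.1 in hyperoxia alone, and 11.6, 11.5 and 11.5 in HO-rWNT5A, again with HO apart above the rest. In HO vs RA its log2 fold change was 0.25 (adjusted p = 0.329 over transcripts). Bcl2l11-202, of 91 codons, was listed at 0 in HO replicate 3 and between 2.09 and 3.31 FPKM in the other 8 libraries, and an exact 0 can be a failed estimate.

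Bid encodes a protein that caspase 8 cuts into its active form, which links death receptors to mitochondria. Its FPKM was 8.63, 8.46 and 8.29 in room air, 6.86, 7.70 and 8.01 in hyperoxia alone, and 7.75, 8.25 and 8.42 in HO-rWNT5A. HO lay below RA without overlap, while HO-rWNT5A overlapped both. The log2 fold change was -0.15 ± 0.0669 in HO vs RA (limma adjusted p = 0.262) and 0.10 in HO-rWNT5A vs HO, with an interval of -0.05 to 0.25 (adjusted p = 0.666). The genes Bcl2l13 next to Bid, Ggnbp1 next to Bak1 and Gpr137 next to Bad overlap them on the opposite strand, and whether the quantification used strand is not given in the sources used here.

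Bad encodes a BH3-only protein that survival kinases phosphorylate, after which 14-3-3 proteins hold it in the cytosol. Group means were 8.02 ± 0.378 FPKM in room air, 8.09 ± 1.07 in hyperoxia alone and 7.99 ± 0.29 in HO-rWNT5A (SD, n = 3), the closest 3 means of any of the 10 genes. The 9 libraries ranged from 7.31 in HO replicate 3 to 9.31 in HO replicate 1, and the interval of the log2 fold change was -0.18 to 0.19 in HO vs RA (limma adjusted p = 0.983). Bmf encodes a BH3-only protein tied to the cytoskeleton through a dynein light chain. It was lowest of all, at 1.87 ± 0.0714 FPKM in room air, 1.73 ± 0.305 in hyperoxia alone and 1.75 ± 0.597 in HO-rWNT5A, with overlapping groups. HO-rWNT5A replicate 3, at 1.07, was the lowest Bmf value and HO-rWNT5A replicate 1, at 2.19, the highest. Its interval in HO vs RA was -0.42 to 0.26, and any change within it, on the scale of log2(FPKM + 1), is compatible with these libraries.

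The balance of the family was described by summing FPKM on each side, as a description with no test. The 4 anti-death genes summed to 174, 175 and 174 FPKM in room air, 184, 196 and 185 in hyperoxia alone, and 196, 190 and 190 in HO-rWNT5A. The 6 pro-death genes summed to 84.4, 86.9 and 83.9 in room air, 85.7, 92.9 and 77.3 in hyperoxia alone, and 81.7, 78.8 and 79.2 in HO-rWNT5A. The anti-death sum was thus higher in every hyperoxic library than in room air, and the pro-death sum was lower than in room air in HO replicate 3 and in all HO-rWNT5A libraries. Bcl2l1 and Mcl1 made up 52.7% and 36.0% of the anti-death sum in RA, so these sums follow those genes. Bcl2 made up 2.79 ± 0.0835% in RA and 2.11 ± 0.242% in HO (SD, n = 3).

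The ratio of pro-death to anti-death FPKM was 0.485, 0.496 and 0.481 in room air, 0.466, 0.474 and 0.417 in hyperoxia alone, and 0.417, 0.415 and 0.416 in HO-rWNT5A. RA lay above both hyperoxic groups. HO replicate 3 touched the HO-rWNT5A libraries at 0.417 and the other HO libraries stood between. Means were 0.487 ± 0.0075, 0.453 ± 0.0308 and 0.416 ± 0.000928 (SD, n = 3). Without Bok they were 0.303 ± 0.00226, 0.291 ± 0.00218 and 0.278 ± 0.0108, the same order with smaller steps. Without HO replicate 3 the log2 difference of the ratio was -0.05 in HO vs RA and -0.18 in HO-rWNT5A vs HO, against -0.11 and -0.12 with all libraries. The order did not hold once the p53 targets were counted. With Bax, Bbc3 and Pmaip1 on the pro-death side the ratio was 1.5 ± 0.0281 in room air, 1.66 ± 0.119 in hyperoxia alone and 1.57 ± 0.0205 in HO-rWNT5A, higher in hyperoxia than in room air in every library. The direction of the family's balance between room air and hyperoxia therefore depended on whether these 3 genes were counted.

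**Figure D3:**
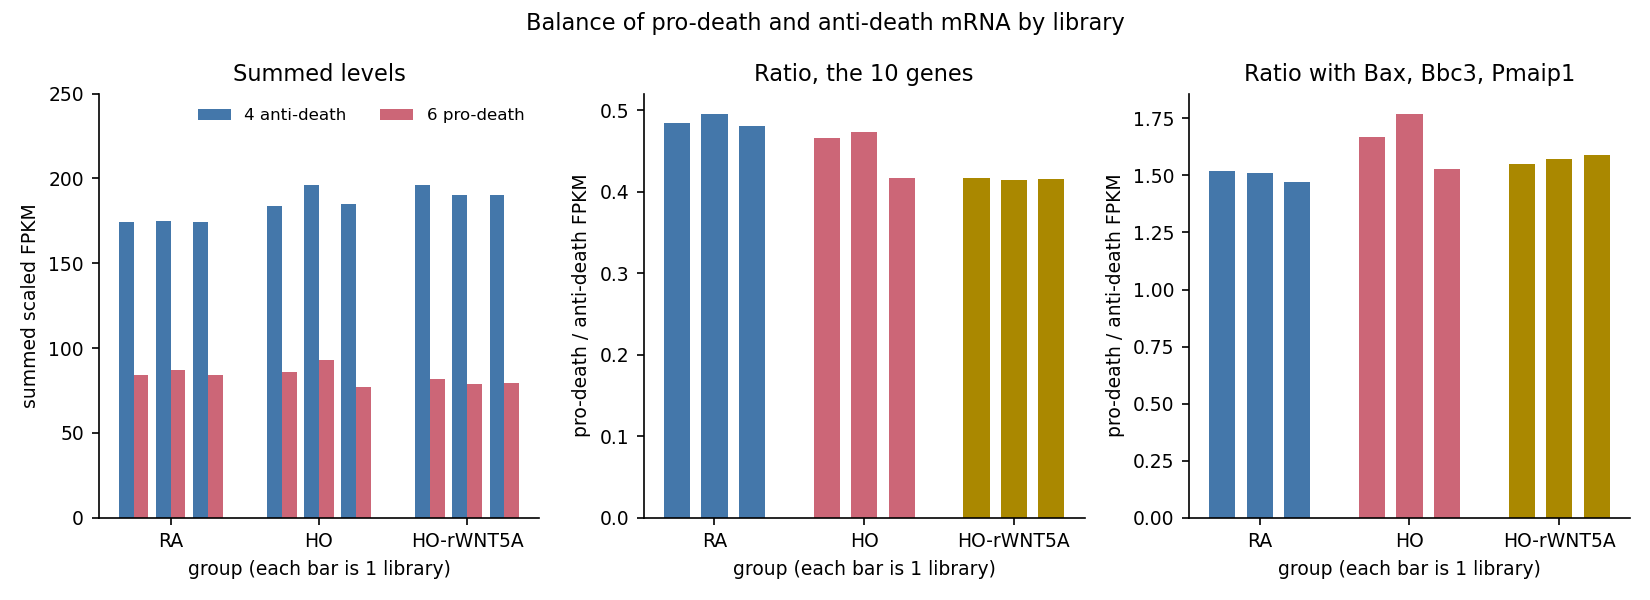
Summed scaled FPKM of the 4 anti-death and 6 pro-death genes in each library (left), their pro-death to anti-death ratio (middle) and the ratio with Bax, Bbc3 and Pmaip1 added to the pro-death side (right), each bar being 1 library. The middle ratio has its highest mean in RA (0.487, against 0.453 in HO and 0.416 in HO-rWNT5A), while the right one has its lowest there (1.5).

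The p53 targets themselves were Bax, which encodes the other main pore-forming protein, and Pmaip1 and Bbc3, which encode the BH3-only proteins NOXA and PUMA. Pmaip1, whose product binds MCL1, rose from 68.0 ± 6.29 FPKM in room air to 97.4 ± 11.3 in hyperoxia (SD, n = 3), a log2 fold change of 0.51 ± 0.0978 (limma adjusted p = 0.0338), and was at 93.4 in HO-rWNT5A (adjusted p = 0.0329 against RA). Bax was at 94.3, 93.7 and 96.1 in room air, 122, 131 and 94.3 in hyperoxia alone, and 121, 113 and 110 in HO-rWNT5A. Its HO replicate 3 was at the room air level, and the log2 fold change of 0.27 in HO vs RA had an adjusted p of 0.2, or 0.0138 at 0.41 without that library, with a range of 0.0138 to 0.454 over 24 alternatives. In HO-rWNT5A vs RA, where the groups did not overlap, it was also 0.27 (adjusted p = 0.169), past the threshold in 3 of 24 alternatives, with a range of 0.0125 to 0.364. Bbc3 had the smallest p of the 3 in HO-rWNT5A vs HO, with a log2 fold change of -0.05, an adjusted p of 0.886 and overlapping groups. Of the 24 alternatives, 12 left Pmaip1 without a call in HO vs RA and 9 in HO-rWNT5A vs RA.

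Transcripts were examined because BCL2 family genes use splicing and several starts. The 10 genes have 57 annotated transcripts in the table, 23 of which reached a mean of 1 FPKM, and none of those passed limma's test in any comparison, where 0.0153%, 0.0115% and 0.0382% of 26158 transcripts did in HO vs RA, HO-rWNT5A vs HO and HO-rWNT5A vs RA. At an unadjusted p under 0.05 the counts were 5, 1 and 4 of the 23, against 11.2%, 6.78% and 11.1% of all transcripts tested. Most of these were transcripts of Bcl2l1, whose estimates depend on each other. They were Bcl2l1-202, Bcl2l1-205 and Bcl2l1-207 in HO vs RA, Bcl2l1-205 in HO-rWNT5A vs HO, and Bcl2l1-201, Bcl2l1-202 and Bcl2l1-207 in HO-rWNT5A vs RA. The lowest adjusted p was 0.287, for Bcl2l1-207 in HO vs RA.

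The split of Bcl2l1 varied more between libraries than its total. Bcl2l1-201 and Bcl2l1-202 encode the same 233 residues and differ in their first exon, with 2287 bases shared and 130 and 281 bases of their own. Bcl2l1-201 was assigned 43.3, 57.0 and 24.4 FPKM in room air, 23.3, 14.9 and 35.2 in hyperoxia alone, and 17.2, 15.8 and 25.9 in HO-rWNT5A. Bcl2l1-202 was assigned 21.1, 8.51 and 41.1 in room air, 51.1, 73.1 and 32.2 in hyperoxia alone, and 64.0, 62.3 and 52.2 in HO-rWNT5A. RA and HO overlapped for both transcripts, and HO-rWNT5A lay above RA for Bcl2l1-202 alone. The log2 fold change of Bcl2l1-202 was 1.28 ± 0.504 in HO vs RA (limma adjusted p = 0.41) and 1.54 ± 0.504 in HO-rWNT5A vs RA (adjusted p = 0.324). Those of Bcl2l1-201 were -0.74 (adjusted p = 0.511) and -1.0 (adjusted p = 0.387). Reads on the shared bases cannot be assigned to either transcript with certainty, so the split is uncertain. The total sums per-length values over transcripts of 2417 and 2568 bases, so it too depends in part on the split.

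**Figure D4:**
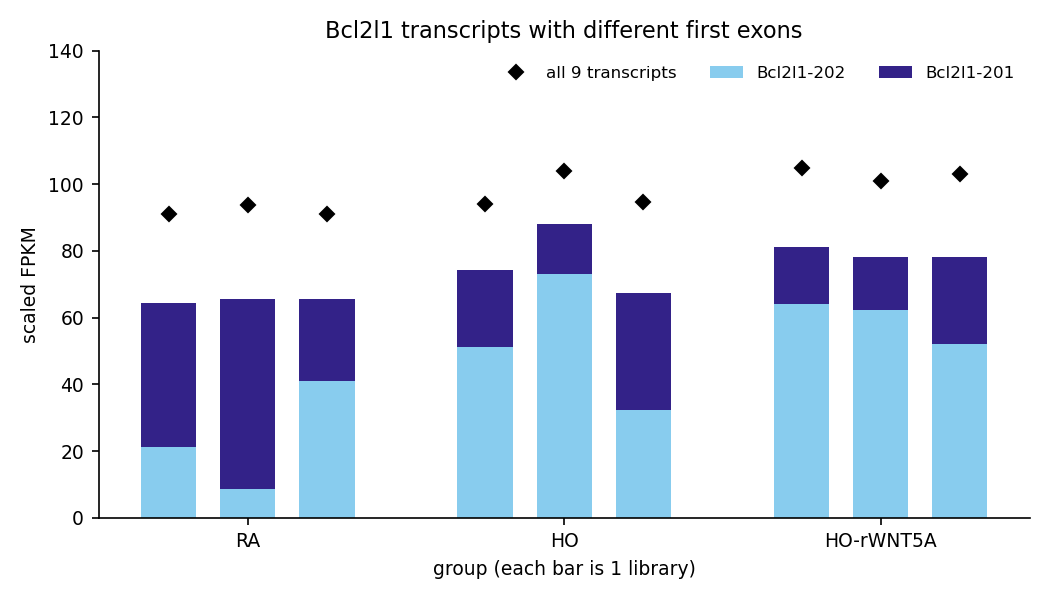
Scaled FPKM assigned to Bcl2l1-202 and Bcl2l1-201 (stacked bars, 1 bar per library) and the total over all 9 Bcl2l1 transcripts (diamonds). The share of Bcl2l1-201 in the pair ranges from 87.0% in RA replicate 2 to 16.9% in HO replicate 2, while the total stays between 91.0 and 105.

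The first exons begin 1062 bases apart, at positions 152831728 and 152830666 of chromosome 2, so the 250 bases before each start are shown from RefSeq (GRCm38.p6), as the places where the transcripts would be started. Capitals mark each CG dinucleotide, a pair that reads the same on both strands.
Bcl2l1-201 start: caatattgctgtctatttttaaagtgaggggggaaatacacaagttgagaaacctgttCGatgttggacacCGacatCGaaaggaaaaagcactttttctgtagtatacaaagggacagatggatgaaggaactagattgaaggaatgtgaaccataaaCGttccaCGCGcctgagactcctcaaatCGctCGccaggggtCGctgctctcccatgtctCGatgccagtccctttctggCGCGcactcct
Bcl2l1-202 start: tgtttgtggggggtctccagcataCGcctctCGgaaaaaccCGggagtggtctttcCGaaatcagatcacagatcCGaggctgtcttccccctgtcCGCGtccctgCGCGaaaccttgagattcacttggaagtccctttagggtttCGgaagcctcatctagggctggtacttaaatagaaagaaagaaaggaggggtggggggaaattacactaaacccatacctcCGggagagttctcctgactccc
The first window is chr2:152831729-152831978 and the second chr2:152830718-152830967, both on the minus strand, and the RefSeq start of the second lies 51 bases from the GENCODE start. They hold 12 and 11 CG dinucleotides at a GC content of 47.6% and 53.2%. Over 32851 windows of the same length the medians were 6 and 52.4%, and 92.1% of windows held at least 1 CG. These counts describe the sequence only.

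By a rule of likeness over the 9 libraries, applied to the gene of the 10 with the widest range of group means, the genes closest to Bcl2l2 were Ebf4, Msl1 and Sh3bp1. The root mean square difference of their centred log2 values from those of Bcl2l2 was 0.0261, 0.0451 and 0.0463, against a median of 0.17 over 10846 named protein-coding genes. Ebf4 went from 5.99 in RA to 7.02 in HO and 7.53 FPKM in HO-rWNT5A. The rule picked these genes for likeness in these same libraries, so their closeness to Bcl2l2 follows from the choice.

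Genes around the family were read from named lists. Of all genes tested, 1.97% passed limma's test in HO vs RA, 0.00723% in HO-rWNT5A vs HO and 4.26% in HO-rWNT5A vs RA. Of 13 other BCL2 family and BH3 genes, 6 were tested. The haematopoietic guardian genes Bcl2a1a, Bcl2a1b and Bcl2a1d, together with Bcl2l10, Bcl2l14, Bcl2l15 and Hrk, averaged under 0.2 FPKM and were not tested. None of the 6 rose or fell in HO vs RA or HO-rWNT5A vs HO by limma's test. At an unadjusted p under 0.05 there were 0 and 2, against 18.1% and 9.2% of all genes. The smallest p in HO vs RA was that of Bnip1, which encodes a membrane fusion protein of the endoplasmic reticulum, at a mean of 7.61 FPKM in room air and 6.43 in hyperoxia with overlapping groups (adjusted p = 0.276). In HO-rWNT5A vs HO it was that of Bcl2l12, at 4.42, 4.39 and 3.91 in hyperoxia alone and 5.75, 4.80 and 5.57 in HO-rWNT5A, which did not overlap (log2 fold change 0.28, adjusted p = 0.5). Bnip3, which encodes a mitophagy receptor with a weak BH3-like part and is known as a hypoxia-induced gene, fell in HO-rWNT5A vs RA. It was at 9.06, 7.45 and 6.25 FPKM in room air, 6.27, 7.06 and 5.79 in hyperoxia alone, and 4.41, 4.97 and 4.85 in HO-rWNT5A. HO-rWNT5A lay below both other groups, which overlapped, and the log2 fold change against RA was -0.57 ± 0.114 (adjusted p = 0.0253). That call was lost in 6 of 24 alternatives.

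Of 12 apoptosome and caspase genes, all tested, 1 rose and none fell in HO vs RA and in HO-rWNT5A vs RA. It was Apaf1, the scaffold of the apoptosome and itself known as a p53 target. Apaf1 was at 17.4, 17.1 and 16.6 FPKM in room air, 20.0, 23.4 and 24.5 in hyperoxia alone, and 20.4, 23.4 and 24.3 in HO-rWNT5A, with RA below both hyperoxic groups. Its log2 fold change was 0.39 ± 0.0832 in each comparison with RA (limma adjusted p = 0.0482 for HO and 0.0306 for HO-rWNT5A). The call in HO vs RA was lost in 18 of 24 alternatives and that in HO-rWNT5A vs RA in 9. None of the 12 passed in HO-rWNT5A vs HO, where 3 were at an unadjusted p under 0.05, against 9.2% of all genes.

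Of 20 binding partners and turnover genes, 19 were tested. In HO vs RA none passed and 4 were at an unadjusted p under 0.05, against 18.1% of all genes. The smallest p was that of March5, which encodes a mitochondrial ubiquitin ligase known to act on MCL1. March5 had a mean of 27.6 FPKM in room air and 33.2 in hyperoxia. Its limma adjusted p was 0.0858, or 0.047 without HO replicate 3, with a range of 0.047 to 0.315 over 24 alternatives. Fbxw7, which encodes a ubiquitin ligase receptor for MCL1, rose in HO-rWNT5A vs RA. It was at 6.72, 7.11 and 6.29 FPKM in room air, 7.76, 8.05 and 7.97 in hyperoxia alone, and 8.24, 9.28 and 8.99 in HO-rWNT5A, 3 groups without overlap. Its log2 fold change was 0.35 ± 0.0658 against RA (adjusted p = 0.0202) and 0.14 ± 0.0658 against HO (adjusted p = 0.557). The call against RA was lost in 5 of 24 alternatives. The 4 inhibitor of apoptosis genes and the 6 transcription factors known to act on Bcl2l11, Bmf or Bbc3 held no gene past limma's threshold in any comparison. In HO vs RA, 0 and 3 of them were at an unadjusted p under 0.05, against 18.1% of all genes. In HO-rWNT5A vs HO none was, against 9.2%, and in HO-rWNT5A vs RA 1 and 3 were, against 20.9%. Among the inhibitors Birc2 had the smallest p in each comparison, with a log2 fold change of 0.07 in HO vs RA (adjusted p = 0.657), 0.14 in HO-rWNT5A vs HO (adjusted p = 0.606) and 0.21 in HO-rWNT5A vs RA (adjusted p = 0.151). Among the factors it was Foxo1, a forkhead factor restrained by AKT, in HO vs RA, at 9.83 FPKM in room air and 11.6 in hyperoxia with overlapping groups (0.21, adjusted p = 0.199). E2f1, a factor of cell cycle entry, had the smallest p in both comparisons of HO-rWNT5A, -0.15 against HO (adjusted p = 0.543) and -0.21 against RA (adjusted p = 0.118, with a range of 0.0439 to 0.315 over 24 alternatives).

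**Figure D5:**
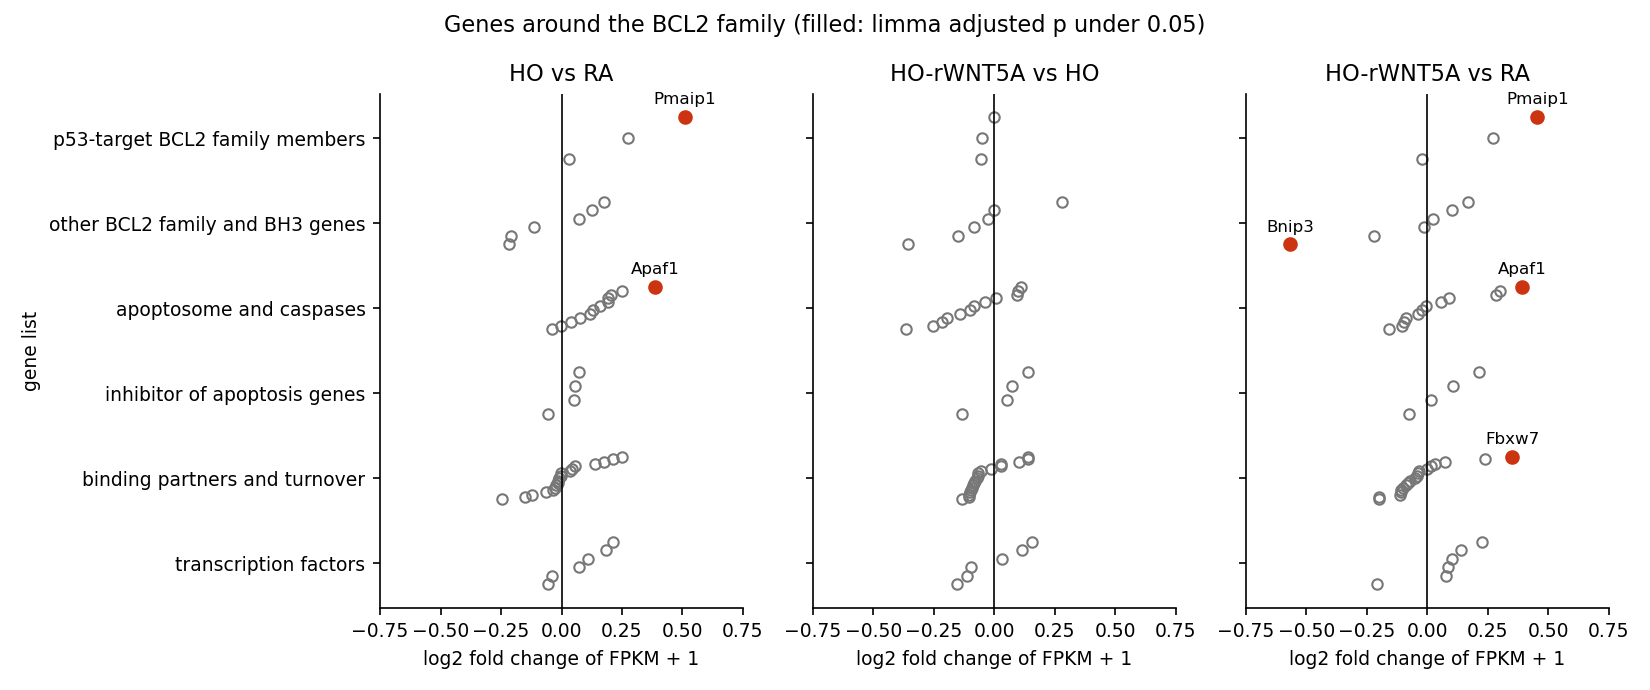
Log2 fold change of FPKM + 1 of the tested genes of 6 lists around the family, each point a gene, spread vertically by size within its list. Filled and named points passed limma's adjusted threshold: Pmaip1 and Apaf1 above 0 in both comparisons with RA, and Bnip3 below and Fbxw7 above 0 in HO-rWNT5A vs RA.

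Summed levels of cell type markers were compared by group. The summed FPKM of the 10 endothelial markers was 49.5 to 54.9 in room air, 47.7 to 54.0 in hyperoxia alone and 39.0 to 48.8 in HO-rWNT5A. The 4 fibroblast markers summed to 197 to 215 in room air, 157 to 192 in hyperoxia alone and 146 to 197 in HO-rWNT5A, and the 3 mesothelial markers to 26.1 to 30.2, 19.0 to 22.7 and 23.0 to 23.2. The endothelial sum was lower in HO-rWNT5A than in RA without overlap, the fibroblast sum was lower in HO than in RA, and the mesothelial sum was lower than RA in both hyperoxic groups. Each of these sums rests mostly on 1 gene, Flt1, Col1a1 and Wt1 in that order. Flt1 had a mean of 41.6 FPKM in RA and 33.8 in HO-rWNT5A, while Emcn was at 9.66 and 10.3 and Kdr at 0.852 and 1.11. The 8 pericyte and smooth muscle markers overlapped, at 2950 to 3300 in room air, 2410 to 3310 in hyperoxia alone and 2700 to 3110 in HO-rWNT5A, as did the 4 epithelial markers (86.6 to 103, 80.6 to 108 and 80.7 to 95) and the 6 leukocyte markers (5.02 to 6.50, 4.15 to 10.5 and 4.01 to 8.91). Their part in the values of the BCL2 family genes was not tested.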

How the data were processed

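Total RNA of 9 libraries was read as 150-base pairs. Per the labels' protocols, reads were trimmed with Skewer 0.2.2 and aligned with STAR 2.5.3a, and transcripts were assembled and merged with StringTie 1.3.1. The submitters' processing notes list the builds hg38 and mm10, and the identifiers are those of mouse. The authors deposited FPKM for 143043 transcripts, so read depth is unknown and no count test was made. Of 142351 Ensembl transcripts, 141441 were named from GENCODE M21 (GRCm38).

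FPKM was summed per gene, scaled by the median ratio between libraries and tested on log2(FPKM + 1) with limma 3.58.1 in R 4.3.3. The fit held all 9 libraries, with a variance trend, two-sided tests and Benjamini-Hochberg adjustment over the 13831 genes averaging at least 1 FPKM. Scaled values are printed. Plots used Python 3.11.15 and matplotlib 3.10.9. With 3 libraries a group, the smallest p of an exact permutation test is 0.1. The procedure was also run on simulated data with independent noise and the same spread in every group. That setting does not cover unequal spread between groups or a library that deviates from its group, so it says nothing about those.

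The 10 genes and the lists were chosen with earlier results of these data known. All 10 are named, and from each other list, per comparison, up to 4 genes past the threshold, otherwise the one with the smallest p. Another gene that this rule names is not reported here. Pmaip1 and Bax are given in both comparisons with RA. Leaving out HO replicates 2 and 3 together and scaling to the protein-coding total were added after the data were seen.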

Additional observations from a re-analysis of the deposited data

How the results depend on the processing

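Over 24 alternative analyses the 10 genes gave 238 values in each comparison, of which 226 in HO vs RA, 222 in HO-rWNT5A vs HO and 224 in HO-rWNT5A vs RA kept direction and side of the threshold. Bcl2l1, Mcl1, Bcl2l2 and Bcl2 kept their direction against RA in every alternative that gave a value. Some values were close to none, with lows of 0.02 for Bcl2l1 in HO vs RA and 0.02 for Mcl1 in HO-rWNT5A vs RA. Without HO replicate 3, 1 of the 10 genes passed limma's adjusted threshold in HO vs RA (0 to 1 over leave-one-out). There 706 of all genes passed, against 273 in the main analysis. In HO-rWNT5A vs RA, 3 passed with the compared groups alone, Bcl2l1, Bcl2l2 and Bok (adjusted p = 0.0391, 0.0496 and 0.0475). That setting called 1328 of all genes, against 589 in the main analysis, so the rise in calls was not confined to the 10 genes. Bcl2l2 also passed with protein-coding transcripts alone, where 398 of all genes did (adjusted p = 0.0485). It passed at the same adjusted p under the protein-coding total, where 545 did. Leaving out HO replicates 2 and 3 leaves 1 HO library, and log2 fold changes were then 0.16 for Bcl2l1 and -0.27 for Bok. With no filter, which admits transcripts at or near 0 FPKM, 1 transcript of the 10 genes passed in HO-rWNT5A vs HO and 1 in HO-rWNT5A vs RA. A transcript under the filter, Bad-205, was listed at 0 in every RA and HO library and at 0.217 to 0.252 FPKM in HO-rWNT5A. The share of all transcripts that passed with no filter is not given, so these counts are not read as a result about the 10 genes.

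The count over all genes in HO vs RA, 273, became 69 with no filter, 56 with equal totals, 64 with the compared groups alone, 147 with protein-coding transcripts alone, 23 with HO replicates 2 and 3 both left out, and 2 (without RA replicate 2) to 706 (without HO replicate 3) over leave-one-out. In HO-rWNT5A vs RA, 589 became 222, 257 and 1328 under the first 3 of these and 1338 with HO replicates 2 and 3 left out, and leave-one-out gave 124 (without RA replicate 1) to 1018 (without HO replicate 3). In HO-rWNT5A vs HO, 1 became 0 with no filter and with HO replicates 2 and 3 left out, 3 with the compared groups alone, and 1 to 27 over leave-one-out. In HO vs RA 167 genes were higher and 106 lower, against 103 and 179 with FPKM as deposited. In HO-rWNT5A vs RA 331 were higher and 258 lower, against 209 and 615 as deposited and 93 and 164 with equal totals. The cause was not tested.

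Replicate numbers pair nothing in the labels, and deviations of same-numbered libraries correlated from -0.118 to 0.28. With the replicate block the counts were 116, 2 and 393 in HO vs RA, HO-rWNT5A vs HO and HO-rWNT5A vs RA, with none of the 10 genes passing.

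Log2 values near 0 changed sign. In HO vs RA, Bad was -0.05 with FPKM as deposited, -0.03 with equal totals, -0.01 with quantile normalization and with the protein-coding total, and -0.02 with protein-coding transcripts, and Bmf was 0.07 with HO replicates 2 and 3 left out. In HO-rWNT5A vs HO, Bmf was 0.0026 with a pseudocount of 5 and 0.01 with the protein-coding total, Bad 0.01 with protein-coding transcripts and 0.02 with the protein-coding total, and Bak1 0.09 with HO replicates 2 and 3 left out and 0.00082 with the protein-coding total. In HO-rWNT5A vs RA, Bak1 was -0.07 with protein-coding transcripts and Bad 0.01 with the protein-coding total.

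Leaving out each library in turn, the log2 fold change ran in HO vs RA from -0.09 to 0.07 for Bad, -0.16 to 0.004 for Bmf and -0.23 to 0.08 for Bok. It ran in HO-rWNT5A vs HO from -0.07 to 0.08 for Bad, -0.12 to 0.19 for Bmf, -0.02 to 0.08 for Bcl2, -0.09 to 0.09 for Bak1 and -0.12 to 0.01 for Bbc3. It ran in HO-rWNT5A vs RA from -0.03 to 0.0023 for Bcl2l11, -0.03 to 0.03 for Bad and -0.20 to 0.11 for Bmf.

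The log2 difference of the pro-death to anti-death ratio was -0.11 in HO vs RA, -0.12 in HO-rWNT5A vs HO and -0.23 in HO-rWNT5A vs RA. Over leave-one-out it ran from -0.14 to -0.05, -0.18 to -0.09 and -0.24 to -0.22, with -0.05 and -0.18 without HO replicate 3. Without Bok it was -0.06 and -0.07 in the first 2 comparisons, without Bcl2l1 -0.07 in the second, as a difference of mean log2 values -0.06 and -0.07, and with HO replicates 2 and 3 both left out -0.06 in the first. With Bax, Bbc3 and Pmaip1 it was 0.14 in HO vs RA, -0.08 in HO-rWNT5A vs HO and 0.07 in HO-rWNT5A vs RA. For HO-rWNT5A vs RA it was -0.25 without Mcl1, -0.20 without Bcl2l1, -0.13 without Bok, -0.27 with protein-coding transcripts alone and -0.13 as a difference of mean log2 values.

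FPKM without counts gives no counting interval, so precision rests on 3 libraries a group. The log2 intervals of the 10 genes reached -0.56 and 0.44 over the 3 comparisons. Quantities shared between transcripts, overlapping genes on either strand and mRNA without protein limit what the values of these genes show.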
